A study of Mus musculus with 8 samples.

Results

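The genes described here are 30 mouse genes of cholesterol synthesis and its control by SREBP2, chosen by name and ordered by pathway step. All 30 were found by symbol among the 55401 gene identifiers of the deposited count table, and all 30 were among the 18882 genes that passed the filter on low counts. The list holds 19 synthesis enzymes, of which 8 act in the mevalonate and isoprenoid steps and 11 in the steps from squalene to cholesterol. It also holds 5 regulators of the SREBP transcription factors, the sterol transport gene Stard4, and 5 genes of the liver X receptors (LXR) and their targets. The samples are cultured mouse cells of EHE (epithelioid hemangioendothelioma), a vascular tumour whose cells resemble endothelium. RNA of 3 lines was sequenced: EHE26 (n = 2 libraries), EHE17 (n = 3) and EHE6 (n = 3). The name of the line is the only difference that the labels state between the groups, and the genotype, the oncogenic driver, the animal of origin, the clonality, the culture medium and the cell density are not given in the sources used here. No line is labelled as a control, so each line was compared with each other line. Nothing states that the libraries of a line came from separate cultures, so p-values measure only the spread between these libraries, which may be technical.

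Cells make cholesterol from acetyl-CoA by way of mevalonate and squalene, and the last stages close squalene into a ring and trim the product to cholesterol in the endoplasmic reticulum. The transcription factor SREBP2, encoded by Srebf2, is held in that membrane by SCAP and the INSIG proteins when sterols are plentiful. When sterols are scarce it is carried to the Golgi, cleaved and released to the nucleus, where it binds sterol regulatory elements, often beside sites of NF-Y and Sp1, near the genes of most of these enzymes. LXR works in the other direction: oxysterols activate it, and it raises the sterol exporters Abca1 and Abcg1 and Mylip, a ubiquitin ligase that limits lipoprotein uptake.

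The promoter windows of 6 genes are given with the letters searched for marked where they occur. They were chosen because the results turn on these genes (Lss, Cyp51, Hsd17b7 and Insig1) or because they hold the 8-letter core of a sterol regulatory element (Hmgcs1 and Srebf2). Each window runs 5′ to 3′ on the strand of the gene and comes from RefSeq on GRCm38.p6. It covers 250 bases before to 50 bases after the start that RefSeq gives, and distances are counted from that start. This start can differ from the gene positions given further on, which are those of GENCODE M21. Capitals mark CCAAT, the letters bound by NF-Y, TCACCCCA, the core of a sterol regulatory element, and the E-box CACGTG, each searched on both strands, so that CCAAT on the other strand reads ATTGG. The windows are at chr10:76531355-76531654, plus strand, for Lss, chr5:4104648-4104947, minus strand, for Cyp51, chr1:169969156-169969455, minus strand, for Hsd17b7, chr5:28071162-28071461, plus strand, for Insig1, chr13:119690101-119690400, plus strand, for Hmgcs1 and chr15:82147019-82147318, plus strand, for Srebf2.
Lss: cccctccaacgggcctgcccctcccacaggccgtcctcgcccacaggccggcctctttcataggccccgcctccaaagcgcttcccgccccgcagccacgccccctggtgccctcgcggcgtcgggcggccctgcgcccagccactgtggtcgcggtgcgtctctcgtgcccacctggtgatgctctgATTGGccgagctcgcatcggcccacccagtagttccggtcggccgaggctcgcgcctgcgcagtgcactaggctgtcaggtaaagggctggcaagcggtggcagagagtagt
Cyp51: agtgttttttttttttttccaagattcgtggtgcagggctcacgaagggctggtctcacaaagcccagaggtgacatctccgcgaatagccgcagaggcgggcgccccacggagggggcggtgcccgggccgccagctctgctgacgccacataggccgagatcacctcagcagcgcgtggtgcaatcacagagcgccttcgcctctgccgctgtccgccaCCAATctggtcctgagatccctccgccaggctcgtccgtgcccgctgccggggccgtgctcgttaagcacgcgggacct
Hsd17b7: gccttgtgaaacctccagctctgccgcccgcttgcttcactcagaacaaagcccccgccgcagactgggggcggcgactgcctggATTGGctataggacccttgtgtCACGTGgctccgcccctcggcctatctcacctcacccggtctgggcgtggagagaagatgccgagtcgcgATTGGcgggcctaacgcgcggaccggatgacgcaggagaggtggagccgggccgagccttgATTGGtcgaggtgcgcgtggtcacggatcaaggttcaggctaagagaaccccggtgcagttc
Insig1: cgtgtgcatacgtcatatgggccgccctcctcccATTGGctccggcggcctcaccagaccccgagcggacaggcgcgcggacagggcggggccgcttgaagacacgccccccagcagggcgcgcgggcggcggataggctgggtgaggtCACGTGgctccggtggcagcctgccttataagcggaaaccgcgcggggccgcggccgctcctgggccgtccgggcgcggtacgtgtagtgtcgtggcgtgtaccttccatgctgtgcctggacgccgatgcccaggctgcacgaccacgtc
Hmgcs1: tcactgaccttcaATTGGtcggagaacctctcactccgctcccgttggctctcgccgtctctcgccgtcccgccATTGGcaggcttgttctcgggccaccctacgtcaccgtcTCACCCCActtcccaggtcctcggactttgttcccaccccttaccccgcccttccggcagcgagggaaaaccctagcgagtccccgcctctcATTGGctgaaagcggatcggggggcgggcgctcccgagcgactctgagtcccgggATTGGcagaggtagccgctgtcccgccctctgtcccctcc
Srebf2: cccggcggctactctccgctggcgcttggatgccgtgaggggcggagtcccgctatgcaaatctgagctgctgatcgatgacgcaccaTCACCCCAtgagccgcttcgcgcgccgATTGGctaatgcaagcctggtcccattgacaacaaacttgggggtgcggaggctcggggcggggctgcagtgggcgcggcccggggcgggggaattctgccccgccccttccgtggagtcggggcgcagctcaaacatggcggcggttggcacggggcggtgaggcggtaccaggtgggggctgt

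The Lss window holds 1 CCAAT match, which starts 62 bases before the RefSeq start. The Cyp51 window holds 1, at 29 bases before the RefSeq start, which lies inside the GENCODE positions of the gene. Hsd17b7 has 3 CCAAT matches and 1 E-box, and Insig1 has 1 of each. The TCACCCCA match starts 137 bases before the start of Hmgcs1 and 162 bases before the start of Srebf2. Of the 30 genes, 25 had a window in the table, and Abcg1, Fdft1, Stard4, Fdps and Sqle had none. CCAAT was present in at least 1 window of 15 of the 16 enzymes that had one, and in 78.95% of the enzyme windows, against 37.41% of all 32851 windows. The GC box GGGCGG, which Sp1 is known to bind and which is not marked in capitals, was in 78.95% of the enzyme windows and 35.66% of all windows. TCACCCCA was in 1.56% of all windows and in those of Hmgcs1 and Srebf2 alone among the 25 genes that had a window. The E-box was in windows of Dhcr7, Hsd17b7 and Sc5d among the enzymes and in 7.15% of all windows. A match describes letters only, and a window without one says nothing about binding of the factor.

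Some libraries stood apart from others of their own line. The first principal component, with 56.2% of the variance, placed both EHE26 libraries and the third replicates of EHE17 and EHE6 at 41.7 to 148, and the other 4 libraries at -122 to -103. Those first 4 libraries had 20066 to 20682 genes with a read, against 24462 to 25177 in the other 4. Their total counts were also lower, at 44620965 to 55802651 against 69366708 to 96237665 per library. Depth and this split therefore cannot be told apart. Because both EHE26 libraries lie on one side, the line and this split cannot be told apart in the comparisons with replicates 1 and 2 of EHE17 and EHE6, and results are also given within the sides. All 10 endothelial markers were read in every library, but at levels that varied widely in CPM (counts scaled to the size of the library), by little for Pecam1 (1179 to 1675 CPM) and by far more for Kdr (22.1 to 1042 CPM), Tie1 (37.3 to 1258 CPM) and Emcn (10.2 to 438 CPM). Their summed level was 6083 and 4973 CPM in EHE26, against 11160, 11986 and 7222 CPM in EHE17 and 12100, 13814 and 3501 CPM in EHE6. The sum of 6 macrophage and leukocyte markers was 4.47 to 12.4 CPM in 7 libraries and 31.6 CPM in EHE17 replicate 3, where Cd68 gave 29.47 CPM, and Ptprc reached at most 1.49 CPM in any library. Ttr (11.4 to 26.5 CPM) and Epcam (3.89 to 9.79 CPM), which mark hepatocytes and epithelium, were read in the 4 libraries on the low side, and Ttr had no read and Epcam at most 0.0368 CPM in the others. Krt18, another epithelial marker, was instead highest in EHE6 replicate 3 (89.2 CPM) and EHE26 replicate 2 (28.3 CPM), while Alb did not exceed 0.0269 CPM and Serpina1a had no read.

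The synthesis enzymes lay higher in EHE26 than in both other lines, with a log2 fold change above 0 for 19 of 19 enzymes in each comparison. Their median log2 fold change was 1.71 for EHE26 against EHE17 and 1.46 for EHE26 against EHE6, while the median of all tested genes was -0.11 in both. EHE26 rests on 2 libraries: without replicate 1 the enzyme medians were 0.88 against EHE17 and 0.81 against EHE6, and without replicate 2 they were 2.03 and 1.94. Few single genes passed the test: Sqle, Lss and Cyp51 were called higher against EHE17, and Lss and Hsd17b7 against EHE6. These are 3 of the 30 genes beside 1.08% of all tested genes against EHE17, and 2 of the 30 beside 1.26% against EHE6, by edgeR's quasi-likelihood test, where a call needs an adjusted p below 0.05 and a log2 fold change of 1 or more in size. Higher calls alone made up 0.890% of the tested genes against EHE17 and 1.10% against EHE6. At an unadjusted p under 0.05 edgeR gave 20 of the 30 genes against EHE17, 18 of them higher, where it gave 16.6% of all tested genes and 7.56% as higher. Against EHE6 it gave 16 of the 30, all higher, where it gave 15.9% of all tested genes and 6.85% as higher. In a count that needs no model, both EHE26 libraries exceeded all EHE17 libraries for 15 of the 19 enzymes, where 18.7% of tested genes did so. Against EHE6 the same held for 16 of the 19 enzymes, where 16.0% of tested genes did so. In bulk RNA, fewer cells of a type and less RNA per cell cannot be told apart.

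**Figure D1:**
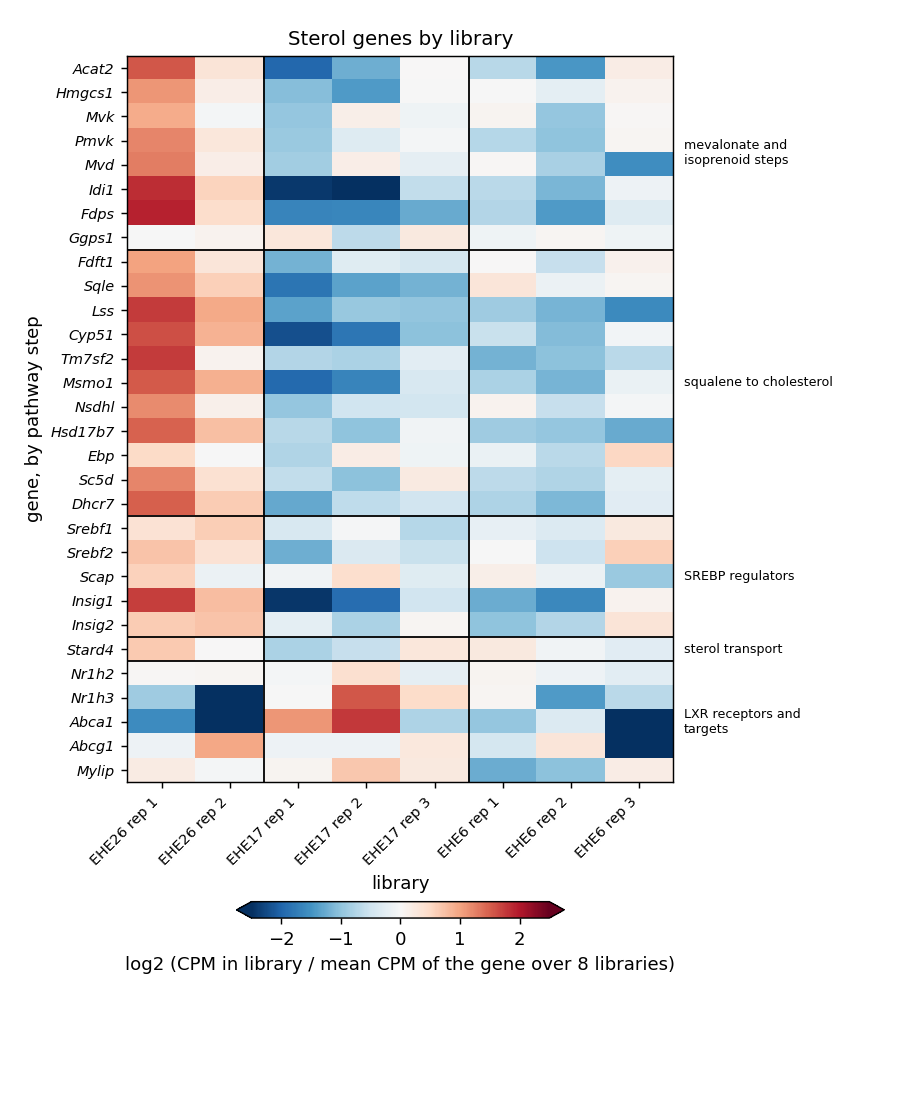
Level of each of the 30 genes (rows, by pathway step) in each of the 8 libraries (columns, by line), as the log2 ratio of its CPM to the gene's mean over the libraries. The EHE26 columns are red for most synthesis enzymes, more so in replicate 1 than in replicate 2, and the LXR genes at the bottom share no single order of the lines. Colours stop at 2.5 in either direction, and 5 values lie beyond it, the lowest -3.66 for Abca1 in EHE6 replicate 3.

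Levels are CPM scaled by the TMM method, and the libraries of a line are given in order of replicate number. Lss encodes lanosterol synthase, which closes the sterol ring, and lies on chromosome 10 at 76531588 to 76557138 (GRCm38). It stood at 89.7 and 51.9 CPM in EHE26, against 10.6, 14 and 13.5 CPM in EHE17 and 14.5, 12.02 and 8.89 CPM in EHE6. Both EHE26 libraries lay far above the other 6, which overlapped each other. The log2 fold change was 2.48 ± 0.34 (SE; adjusted p = 0.0190, edgeR) against EHE17 and 2.59 ± 0.34 (adjusted p = 0.0128) against EHE6. Between EHE17 and EHE6 the value was 0.11 ± 0.30, which was not called (adjusted p = 1, edgeR). Leaving out EHE26 replicate 1 ended both calls, with log2 fold changes of 2.03 (adjusted p = 0.162, edgeR) against EHE17 and 2.14 (adjusted p = 0.134) against EHE6. Over the 8 fits that each left out 1 library, the Lss call held in 3 against EHE17 and in 5 against EHE6.

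Sqle encodes squalene epoxidase, the enzyme that adds the oxygen Lss needs and a known control point of the route, and lies on chromosome 15 at 59315077 to 59331192. Its libraries read 203 and 141 CPM in EHE26, 26.4, 37.1 and 41.01 CPM in EHE17 and 116, 84.5 and 96.7 CPM in EHE6. No 2 lines overlapped, with EHE26 the highest and EHE17 the lowest. The difference was called for EHE26 against EHE17, at a log2 fold change of 2.30 ± 0.29 (adjusted p = 0.0144, edgeR). It was not called for EHE26 against EHE6, at 0.80 ± 0.29 (adjusted p = 0.270). For EHE17 against EHE6 the value was -1.51 ± 0.27 (adjusted p = 0.125, edgeR), which DESeq2 called at -1.52 (adjusted p = 8.88e-05). With 1 library left out at a time, the call against EHE17 held in 4 of 8 fits, and was lost without EHE26 replicate 1 (2.01, adjusted p = 0.12), EHE26 replicate 2 (2.55, adjusted p = 0.0632), EHE17 replicate 1 or EHE17 replicate 2.

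Cyp51, which encodes the lanosterol demethylase, lies on chromosome 5 at 4081145 to 4104746. It had 226 and 135 CPM in EHE26, 16.03, 21.1 and 35.9 CPM in EHE17 and 49.9, 34.5 and 69.7 CPM in EHE6. The EHE26 libraries lay above all others, and replicate 3 was the highest library of EHE17 and of EHE6. EHE26 against EHE17 gave a log2 fold change of 2.89 ± 0.45 (adjusted p = 0.0321, edgeR), a call that held in 3 of 8 fits without 1 library. Against EHE6 it was 1.81 ± 0.44 (adjusted p = 0.122), and for EHE17 against EHE6 -1.08 ± 0.40 (adjusted p = 0.615), neither of which was called.

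Hsd17b7 encodes the 3-ketosteroid reductase that acts after the C4 demethylation and lies on chromosome 1 at 169949535 to 169969241. Its values were 101 and 61.1 CPM in EHE26, 22.3, 18.2 and 34.1 CPM in EHE17 and 19.6, 18.7 and 15.1 CPM in EHE6. The lowest EHE26 library lay above the highest of the other lines, EHE17 replicate 3. EHE26 was called higher than EHE6, at a log2 fold change of 2.19 ± 0.35 (adjusted p = 0.0280, edgeR), while 1.71 ± 0.35 against EHE17 missed the threshold (adjusted p = 0.0719). The call held in 3 of 8 fits without 1 library, and was lost with the split of the libraries as a term in the model (2.02, adjusted p = 0.0696).

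**Figure D2:**
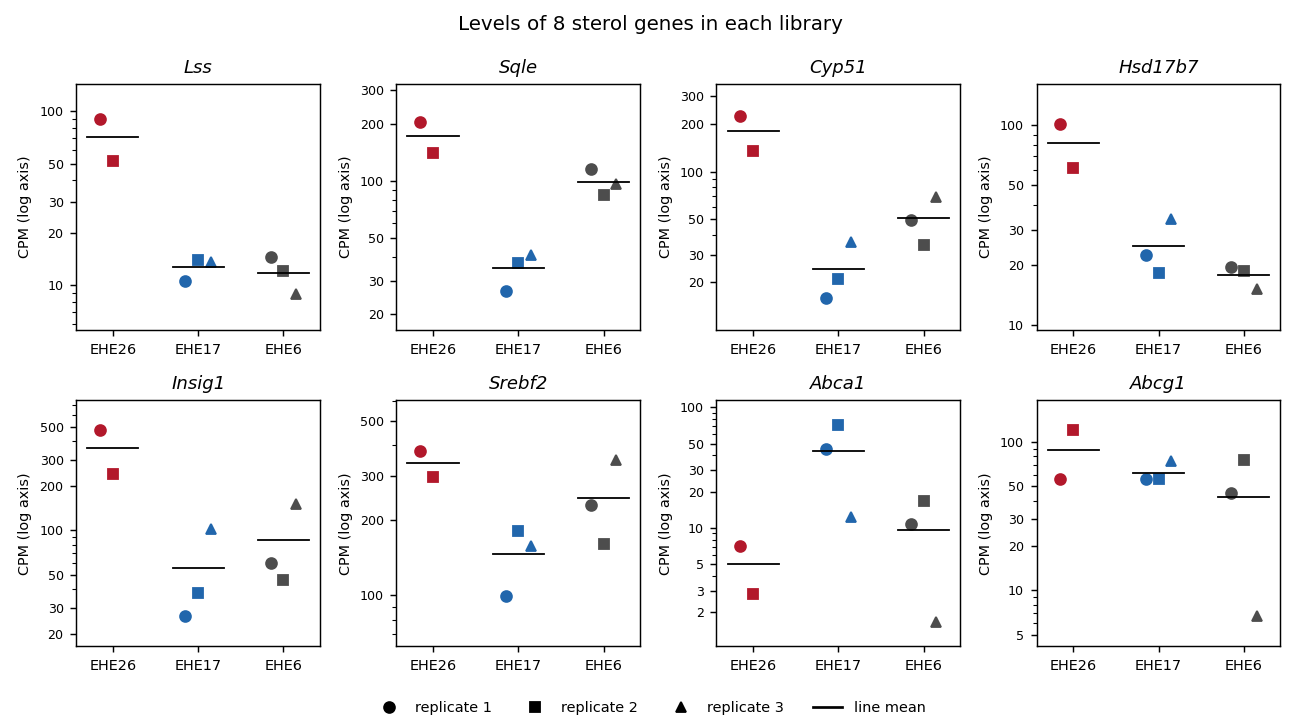
CPM (log axes) of 8 genes in each library, with symbols for the replicate and a horizontal line for the mean of the line. The EHE26 libraries lie above all others for Lss, Sqle, Cyp51, Hsd17b7 and Insig1, while Abca1 is highest in EHE17 and Abcg1 has 1 low library, EHE6 replicate 3.

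The other 7 genes of the squalene to cholesterol stage had log2 fold changes above 0 in both comparisons with EHE26, and edgeR called none. At an unadjusted p under 0.05, edgeR gave 6 of the 7 against EHE17 and 5 against EHE6, and DESeq2 called 5 and 3 of them at the adjusted p. Over the 30 genes DESeq2 called 14 against EHE17, 12 higher and 2 lower, and 7 against EHE6, all higher. It called 8.78% and 8.18% of all tested genes, with 683 and 662 of the 18882 genes called higher. Msmo1, the C4 sterol methyl oxidase, had 261 and 167 CPM in EHE26, 23.3, 28.9 and 68.6 CPM in EHE17 and 52.2, 40.3 and 79.97 CPM in EHE6. Its EHE26 libraries lay above the rest, and its log2 fold change was 2.41 ± 0.51 (adjusted p = 0.0825, edgeR) against EHE17 and 1.90 ± 0.51 (adjusted p = 0.156) against EHE6. With the split of the libraries as a term, Msmo1 was called against EHE17 (1.83). Dhcr7, which reduces 7-dehydrocholesterol to cholesterol, had 60.6 and 33.2 CPM in EHE26, 8.93, 13.8 and 15.4 CPM in EHE17 and 12.7, 9.89 and 17.8 CPM in EHE6. The lines EHE17 and EHE6 overlapped, and the log2 fold change of EHE26 was 1.88 ± 0.40 (adjusted p = 0.0825, edgeR) against EHE17 and 1.80 ± 0.40 (adjusted p = 0.0944) against EHE6. Tm7sf2, a sterol C14 reductase, was low, at 22.3 and 7.11 CPM in EHE26, 4.03, 3.85 and 5.52 CPM in EHE17 and 2.94, 3.27 and 4.18 CPM in EHE6. Replicate 1 of EHE26 stood well above replicate 2, which was itself the second highest library. The Tm7sf2 log2 fold change was 1.72 ± 0.51 (adjusted p = 0.174, edgeR) against EHE17 and 2.09 ± 0.51 (adjusted p = 0.127) against EHE6, and 9.87% of its 50-base words are shared with transcripts of Vps51.

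Fdft1 encodes squalene synthase, the first enzyme committed to sterols. It had 108 and 65.8 CPM in EHE26, 23.7, 43.5 and 39.7 CPM in EHE17 and 54.01, 35.9 and 57.97 CPM in EHE6, so that the EHE26 libraries lay above all others. Its log2 fold change was 1.29 ± 0.36 (adjusted p = 0.160, edgeR) against EHE17 and 0.82 ± 0.36 (adjusted p = 0.322) against EHE6. Of the Fdft1 50-base words, 26.5% occur in other transcripts, among them Ctsb on the opposite strand at 653 to 1514 CPM, and the strand setting of the counting is not given, so its level is uncertain. Nsdhl, the C4 decarboxylase of the X chromosome, had 66.2 and 31.7 CPM in EHE26, 14.9, 20.5 and 21.1 CPM in EHE17 and 30.7, 19.4 and 27.99 CPM in EHE6. The lower EHE26 library lay just above the highest EHE6 library. Sc5d, the lathosterol oxidase, had 104 and 58.5 CPM in EHE26, 29.2, 22.2 and 52.1 CPM in EHE17 and 28.6, 26.6 and 38.03 CPM in EHE6. The log2 fold change of Nsdhl was 1.38 against EHE17 and 0.91 against EHE6, and that of Sc5d was 1.24 and 1.39 in the same order. Ebp, the sterol isomerase, was the enzyme of this stage whose lines overlapped throughout, at 29.9 and 21.1 CPM in EHE26, 12.7, 24.2 and 19.7 CPM in EHE17 and 19.01, 13.4 and 30.6 CPM in EHE6. Its highest library was EHE6 replicate 3, and its log2 fold change was 0.44 ± 0.43 against EHE17 and 0.28 ± 0.43 against EHE6.

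In the mevalonate and isoprenoid steps, the median log2 fold change was 1.31 for EHE26 against EHE17 and 1.39 for EHE26 against EHE6, and edgeR called none of the 8 genes, with 5 at an unadjusted p under 0.05 in each comparison. DESeq2 called Idi1 and Fdps against EHE17 and Fdps against EHE6. Idi1, the isopentenyl diphosphate isomerase, had 142 and 58.3 CPM in EHE26, 7.47, 4.79 and 25.9 CPM in EHE17 and 25.1, 18.2 and 36.6 CPM in EHE6. The EHE26 libraries were the highest and replicates 1 and 2 of EHE17 the lowest, well under EHE17 replicate 3. For Idi1 the log2 fold change was 2.98 ± 0.73 against EHE17 (adjusted p = 0.118, edgeR) and 1.92 ± 0.72 against EHE6 (adjusted p = 0.279). Fdps encodes farnesyl diphosphate synthase, which makes the precursor of squalene. It had 12.2 and 4.34 CPM in EHE26, 1.02, 1.04 and 1.34 CPM in EHE17 and 1.94, 1.20 and 2.56 CPM in EHE6, from 67 to 666 counts per library, the lowest level among the 19 enzymes per length. Its EHE26 libraries lay above the rest at log2 fold changes of 2.87 ± 0.59 (adjusted p = 0.0738, edgeR) against EHE17 and 2.13 ± 0.58 (adjusted p = 0.164) against EHE6. Other transcripts share 26.2% of the Fdps and 25.3% of the Idi1 50-base words, so that reads may have been split or dropped in the authors' counting, and both levels are uncertain.

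Acat2 encodes the acetyl-CoA acetyltransferase that opens the route. It stood at 108 and 45.8 CPM in EHE26, 9.49, 15.8 and 36.9 CPM in EHE17 and 22.9, 13.4 and 42.1 CPM in EHE6. The lower EHE26 library exceeded EHE6 replicate 3 by a small margin, and replicate 3 was the highest library of both other lines. Log2 fold changes were 1.90 ± 0.68 (adjusted p = 0.238, edgeR) against EHE17 and 1.56 ± 0.67 (adjusted p = 0.314) against EHE6, and Acat3 and Tcp1 share 39.1% of the Acat2 50-base words, which leaves its level uncertain. Hmgcs1, the cytosolic HMG-CoA synthase, whose window carries the sterol regulatory element core, had 158 and 82.3 CPM in EHE26, 35.5, 27.8 and 73.1 CPM in EHE17 and 73.7, 61.9 and 78.01 CPM in EHE6. EHE26 replicate 2 barely exceeded EHE6 replicate 3, while replicates 1 and 2 of EHE17 were the lowest. The Hmgcs1 log2 fold change was 1.40 ± 0.45 (adjusted p = 0.199, edgeR) against EHE17, 0.75 ± 0.45 (adjusted p = 0.447) against EHE6, and -0.65 ± 0.41 (adjusted p = 0.906) for EHE17 against EHE6.

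The kinases and the decarboxylase of mevalonate act after these steps. Pmvk, the phosphomevalonate kinase, had 32.9 and 17.1 CPM in EHE26, 7.34, 11.2 and 13.6 CPM in EHE17 and 8.57, 6.999 and 14.5 CPM in EHE6, with the EHE26 libraries on top. Mvd, the decarboxylase, had 66.4 and 30.4 CPM in EHE26, 14.9, 30.5 and 23.3 CPM in EHE17 and 27.7, 15.7 and 9.29 CPM in EHE6. For Mvd the lower EHE26 library lay just under EHE17 replicate 2, and EHE6 replicate 3 was the lowest of all. Mvk, the mevalonate kinase, had 52.95 and 26.8 CPM in EHE26, 14.3, 30.9 and 26.02 CPM in EHE17 and 29.1, 14.2 and 28.5 CPM in EHE6, and here EHE26 replicate 2 lay within the range of the other lines. Against EHE17 the log2 fold changes of EHE26 were 1.22 for Pmvk, 1.08 for Mvd and 0.75 for Mvk, and against EHE6 they were 1.32, 1.46 and 0.74. Ggps1 makes geranylgeranyl diphosphate for protein prenylation, on a branch that leaves the sterol route. It had 44.96 and 48.03 CPM in EHE26, 54.9, 28.5 and 53.6 CPM in EHE17 and 41.6, 46.8 and 41.8 CPM in EHE6. The lines overlapped, and the log2 fold change of EHE26 was 0.03 ± 0.31 against EHE17 and 0.10 ± 0.31 against EHE6, the smallest of the 19 enzymes in both comparisons.

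**Figure D3:**
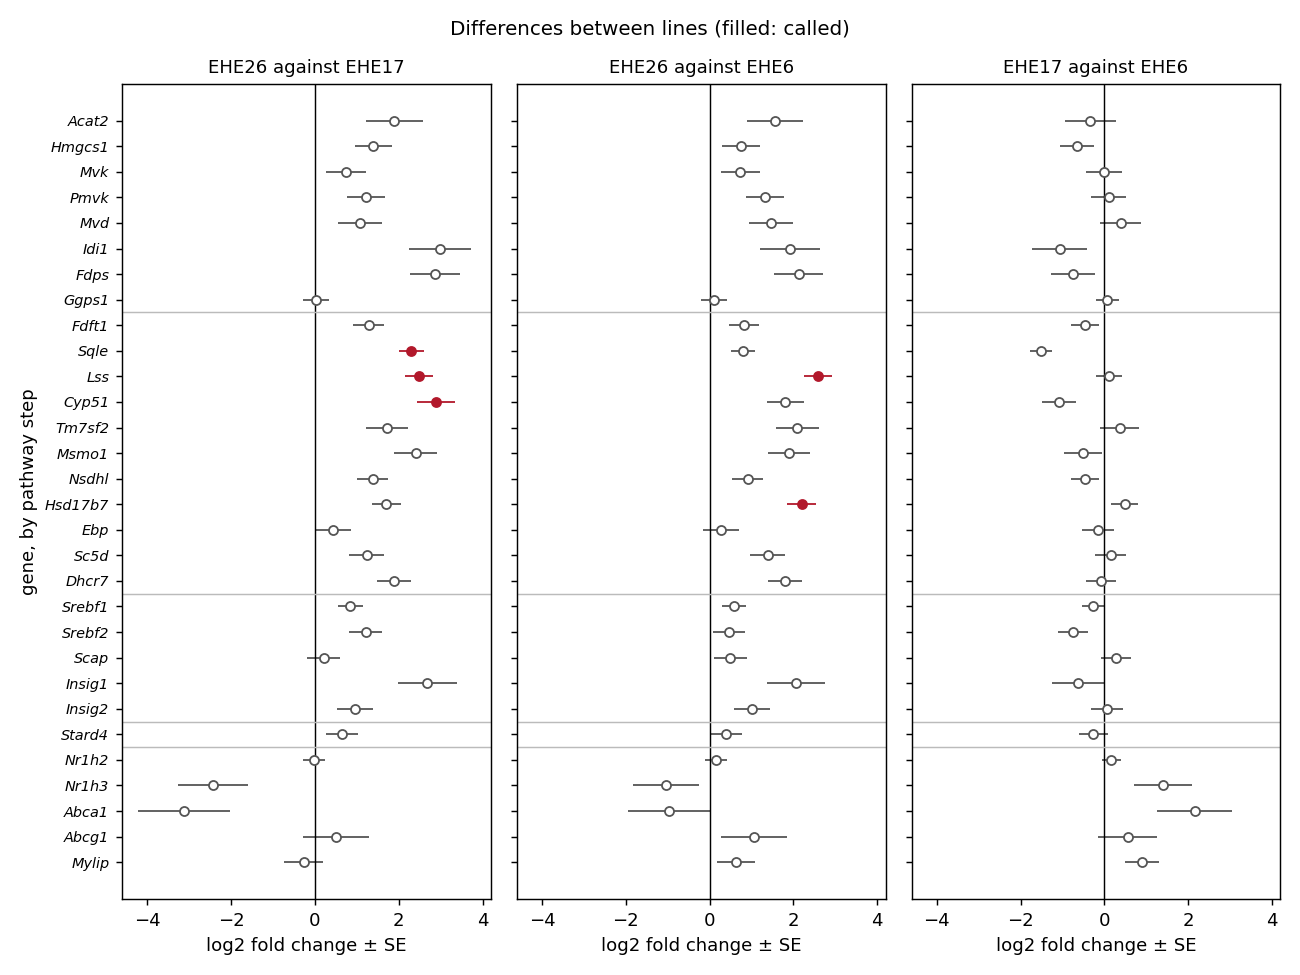
Log2 fold change (horizontal axes) with its standard error for each of the 30 genes (rows, by pathway step) in the 3 comparisons between lines, with filled points for called genes. All 19 enzymes lie right of 0 in both comparisons with EHE26, and the 5 called points are Sqle, Lss and Cyp51 against EHE17 and Lss and Hsd17b7 against EHE6.

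The 5 SREBP regulators all had log2 fold changes above 0 for EHE26 in both comparisons, with medians of 0.96 against EHE17 and 0.58 against EHE6. None was called by edgeR, with 3 and 2 of the 5 at an unadjusted p under 0.05, and DESeq2 called 1, Insig1 against EHE17. Insig1 retains SREBP in the endoplasmic reticulum and is itself a target of SREBP. It had 474 and 242 CPM in EHE26, 26.4, 38.05 and 103 CPM in EHE17 and 60.8, 46.6 and 152 CPM in EHE6. Both EHE26 libraries lay above the rest, and replicate 3 stood far above replicates 1 and 2 in EHE17 and in EHE6. The Insig1 log2 fold change was 2.68 ± 0.70 (adjusted p = 0.136, edgeR) against EHE17 and 2.05 ± 0.69 (adjusted p = 0.246) against EHE6. Srebf2, the gene of SREBP2, had 378 and 299 CPM in EHE26, 99.8, 181 and 158 CPM in EHE17 and 229.6, 161 and 348 CPM in EHE6. EHE26 lay above every EHE17 library but on both sides of EHE6 replicate 3. The log2 fold change was 1.21 ± 0.38 (adjusted p = 0.197, edgeR) against EHE17 and 0.46 ± 0.39 (adjusted p = 0.610) against EHE6, and -0.75 ± 0.35 (adjusted p = 0.755) for EHE17 against EHE6.

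Srebf1, whose products SREBP1a and SREBP1c act mainly on fatty acid genes, had 132 and 159 CPM in EHE26, 78.1, 101 and 63.3 CPM in EHE17 and 89.7, 81.3 and 122 CPM in EHE6. The EHE26 libraries were the highest, replicate 2 above replicate 1, at log2 fold changes of 0.85 ± 0.29 (adjusted p = 0.225, edgeR) against EHE17 and 0.58 ± 0.29 (adjusted p = 0.363) against EHE6. Insig2, the second INSIG, had 76.8 and 81.5 CPM in EHE26, 41.8, 28.6 and 51.6 CPM in EHE17 and 24.6, 30.1 and 62.5 CPM in EHE6. Its EHE26 libraries were close to each other and above the rest, at log2 fold changes of 0.96 against EHE17 and 1.02 against EHE6. Scap, the escort of SREBP, had 67.2 and 40.8 CPM in EHE26, 42.4, 60.7 and 36.6 CPM in EHE17 and 50.4, 40.98 and 23.9 CPM in EHE6, with the lines overlapping and log2 fold changes of 0.21 against EHE17 and 0.49 against EHE6. Stard4, which carries sterol between membranes and is itself a target of SREBP2, had 138 and 87.3 CPM in EHE26, 50.1, 58.4 and 107 CPM in EHE17 and 104, 82.5 and 71.5 CPM in EHE6. Its lower EHE26 library lay within the range of the other lines, and its log2 fold change was 0.65 ± 0.38 against EHE17 and 0.39 ± 0.38 against EHE6.

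The 5 LXR genes shared no single order of the lines. Abca1, the exporter of cholesterol to apolipoproteins, had 7.10 and 2.85 CPM in EHE26, 45.3, 71.6 and 12.2 CPM in EHE17 and 10.7, 16.7 and 1.66 CPM in EHE6. Both EHE26 libraries lay under every EHE17 library, EHE17 overlapped EHE6, and replicate 3 was the lowest library of EHE17 and of EHE6. The log2 fold change was -3.11 ± 1.10 (adjusted p = 0.234, edgeR) for EHE26 against EHE17, -0.96 ± 0.99 (adjusted p = 0.691) for EHE26 against EHE6 and 2.15 ± 0.89 (adjusted p = 0.696) for EHE17 against EHE6. DESeq2 called Abca1 lower in EHE26 than in EHE17 (-3.12, adjusted p = 0.0170), as did edgeR without replicate 3 of EHE17 and of EHE6 (-3.56). Nr1h3, the LXR alpha gene, had 4.18 and 0.877 CPM in EHE26, 7.70, 22.8 and 10.6 CPM in EHE17 and 7.97, 2.91 and 4.81 CPM in EHE6. Its EHE26 libraries also lay under every EHE17 library, at a log2 fold change of -2.44 ± 0.84 (adjusted p = 0.227, edgeR), which DESeq2 called (-2.44, adjusted p = 0.0247). These were the 2 of the 30 genes with EHE26 wholly under EHE17, a pattern that 20.3% of all tested genes had.

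Abcg1, an exporter of cholesterol to high-density lipoprotein, had 56.3 and 119 CPM in EHE26, 56.3, 56.2 and 73.8 CPM in EHE17 and 45.1, 75.03 and 6.68 CPM in EHE6. The lines overlapped, and EHE6 replicate 3 stood far below the other 7 libraries. Its log2 fold change was 0.50 ± 0.79 for EHE26 against EHE17, 1.05 ± 0.78 for EHE26 against EHE6 and 0.56 ± 0.71 for EHE17 against EHE6. Mylip had 25.1 and 20.99 CPM in EHE26, 22.8, 34.6 and 25.7 CPM in EHE17 and 9.23, 10.7 and 24.6 CPM in EHE6, with replicates 1 and 2 of EHE6 the lowest. Its log2 fold change was -0.27 ± 0.46 for EHE26 against EHE17, 0.63 ± 0.45 for EHE26 against EHE6 and 0.90 ± 0.41 for EHE17 against EHE6. Nr1h2, the LXR beta gene, had 97.7 and 98.8 CPM in EHE26, 91.8, 126 and 81.1 CPM in EHE17 and 99.5, 87.2 and 79.8 CPM in EHE6, and the 3 lines overlapped.

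Between EHE17 and EHE6 no gene of the 30 was called by edgeR, where 0.143% of all tested genes were, and DESeq2 called 1, Sqle, where it called 2.04% of all tested genes. At an unadjusted p under 0.05 edgeR gave 3 of the 30 genes, lower in EHE17 for Sqle and Cyp51 and higher in EHE17 for Abca1, where 6.90% of all tested genes passed. The 19 enzymes had a median log2 fold change of -0.15, beside -0.03 for all tested genes, and 7 of the 19 lay above 0. Sqle alone had every EHE17 library under every EHE6 library, as 4.94% of tested genes did. All 5 LXR genes had values above 0, with a median of 0.90, and none had EHE17 wholly above EHE6, as 7.25% of tested genes did. The 3 comparisons share their libraries in pairs, so the values are set side by side and not as separate evidence.

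The split of the libraries bears on each of these comparisons. Within the side that holds replicates 1 and 2, Sqle in EHE17 over EHE6 had a log2 ratio of -1.66, and between the replicates 3 it was -1.24. The same pair of ratios was -1.18 and -0.96 for Cyp51, -1.82 and -0.49 for Idi1, 2.10 and 2.88 for Abca1, and 1.49 and 1.13 for Nr1h3. Abcg1, by contrast, had -0.09 and 3.47, and Lss -0.11 and 0.61, so those genes had no common direction in the 2 sides. The EHE26 mean over EHE17 replicate 3 gave log2 ratios of 2.39 for Lss, 2.07 for Sqle, 2.33 for Cyp51, 1.25 for Hsd17b7, 1.80 for Insig1 and -1.30 for Abca1. Over EHE6 replicate 3 the EHE26 mean gave 2.99 for Lss, 0.83 for Sqle, 1.37 for Cyp51, 2.43 for Hsd17b7 and 1.24 for Insig1, while Abca1 was at 1.58, opposite to its value in the comparison of the whole lines. Both EHE26 libraries exceeded EHE17 replicate 3 for 18 of the 19 enzymes, where 36.8% of tested genes did so. They exceeded EHE6 replicate 3 for 17 of the 19, where 37.1% of tested genes did so.

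A fit of these 4 libraries alone, in which EHE17 and EHE6 each rest on 1 library assumed to vary like EHE26, called none of the 30 genes by edgeR, with 13 at an unadjusted p under 0.05 for EHE26 against EHE17, 10 for EHE26 against EHE6 and 6 for EHE17 against EHE6. At that p the fit gave 19.2%, 20.0% and 21.4% of its tested genes in these comparisons. It called 3.58% of its tested genes for EHE26 against EHE17, 1.95% for EHE26 against EHE6 and 2.77% for EHE17 against EHE6. The enzymes had medians of 1.22 for EHE26 against EHE17 and 1.09 for EHE26 against EHE6 in that fit, with 18 of 19 above 0 in each. With the split as a term on all 8 libraries, the enzyme medians were 1.42 against EHE17, with 18 of 19 above 0, and 0.90 against EHE6, with 17 of 19 above 0. In that fit Sqle, Lss, Cyp51 and Msmo1 were called against EHE17, beside 1.69% of tested genes, and Lss against EHE6, beside 1.89%. Without replicate 3 of EHE17 and of EHE6, 18 of the 30 genes were called higher and Abca1 lower against EHE17, where 21.9% of tested genes were called and 8.46% were called higher. Against EHE6 14 were called, all higher, where 22.7% of tested genes were called and 9.13% were called higher. In this fit the line EHE26 and the split cannot be told apart.

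The 2 EHE26 libraries also differed from each other. Replicate 1 had more than replicate 2 for 18 of the 19 enzymes, with Ggps1 the exception, where 48.7% of all tested genes had more in replicate 1. The median ratio of replicate 1 to replicate 2 was 1.82 over the enzymes and 1 over all tested genes. Replicate 1 was the highest of all 8 libraries for 17 of the 19 enzymes, and for 10.5% of tested genes. Replicate 2 still exceeded all 6 EHE17 and EHE6 libraries for 15 of the 19, where 16.2% of tested genes did so. The summed level of the 19 enzymes was 1890 CPM and 1086 CPM in EHE26, against 337, 398 and 600.5 CPM in EHE17 and 630.2, 477 and 700.1 CPM in EHE6. The mean was 1488 ± 568 CPM (SD, n = 2) in EHE26, 445 ± 138 CPM (n = 3) in EHE17 and 602 ± 114 CPM (n = 3) in EHE6, and EHE17 overlapped EHE6.

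**Figure D4:**
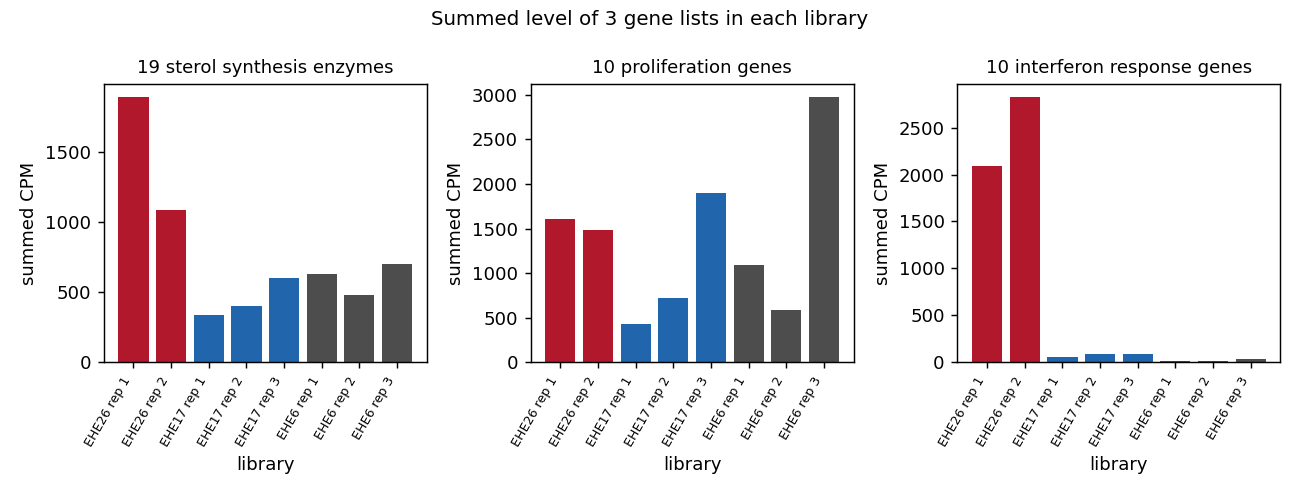
Summed CPM (vertical axes from 0) of 19 sterol synthesis enzymes, 10 proliferation genes and 10 interferon response genes in each of the 8 libraries. The enzyme sum is highest in the EHE26 libraries (1890 and 1086), the proliferation sum in EHE6 replicate 3 (2978), and the interferon sum in the EHE26 libraries (2091 and 2827).

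Other gene lists also differed between the lines or the libraries. The sum of 10 interferon response genes was 2091 and 2827 CPM in EHE26, against 59.3, 89.1 and 87.6 CPM in EHE17 and 12.4, 11.7 and 30.9 CPM in EHE6. Of the 10, 9 were called higher in EHE26 than in EHE17 and 10 higher than in EHE6. Among all tested genes edgeR called 0.890% and 1.10% higher in these comparisons. Between the EHE26 libraries the median ratio of replicate 1 to replicate 2 was 0.76 for the interferon genes, below 1 where that of the enzymes was 1.82. The sum of 10 proliferation genes was 1609 and 1479 CPM in EHE26, 432, 725 and 1905 CPM in EHE17 and 1096, 585 and 2978 CPM in EHE6, so that replicate 3 was the highest library of EHE17 and of EHE6. In those 2 libraries the enzymes had median ratios of 1.35 (EHE17) and 1.34 (EHE6) to the mean of replicates 1 and 2, the proliferation genes had 3.49 and 3.30, and all tested genes had 0.901 and 0.898. The endothelial markers moved as well: 2 of 10 had a log2 fold change above 0 for EHE26 against EHE17 (median -0.87) and 0 of 10 for EHE26 against EHE6 (median -0.80). Of all tested genes 44.16% and 43.37% lay above 0. None of these markers was called by edgeR, and DESeq2 called Tie1 lower in both comparisons and Kdr lower against EHE6. DESeq2 called 8.78% of all tested genes against EHE17 and 8.18% against EHE6. With the split of the libraries as a term, 5 of these 10 markers lay above 0 against EHE17 (median -0.14), where 50.29% of all tested genes did. Against EHE6 7 of these 10 markers then lay above 0 (median 0.29), where 49.15% of all tested genes did. The direction of their median thus depended on the split against EHE6, while against EHE17 it stayed below 0. Between the EHE26 libraries their median ratio of replicate 1 to replicate 2 was 2.05, beside 1.82 for the enzymes, and the ratio of replicate 3 to the mean of replicates 1 and 2 was 0.634 in EHE17 and 0.132 in EHE6. The sum of 6 smooth muscle and pericyte markers was 91.1 and 124 CPM in EHE26, 19.1, 60.6 and 7.504 CPM in EHE17 and 671, 281 and 201 CPM in EHE6. For EHE17 against EHE6 0 of these 6 had a log2 fold change above 0 (median -2.52), where 47.06% of all tested genes did. Of these 6, edgeR called 1 in all, Cspg4, higher in EHE26 than in EHE17, where it called 0.890% of all tested genes higher. The sum of 6 fibroblast markers was 897 and 215 CPM in EHE26, 994.5, 1410 and 1778 CPM in EHE17 and 432.5, 396 and 270 CPM in EHE6, with Thy1 the largest part in every library except EHE6 replicate 3, where it was Pdgfra. Median ratios of replicate 3 to the mean of replicates 1 and 2 were 0.189 (EHE17) and 0.146 (EHE6) for the fibroblast markers. These medians include Col1a1, Col1a2 and Lum, which reached at most 7.75, 9.73 and 3.01 CPM. Thy1 went the other way in EHE17 (1767 CPM in replicate 3, 933 and 1347 CPM in the others). So did Pdgfra in EHE6 (252 CPM in replicate 3, 3.87 and 5.21 CPM in the others). Every other marker of the list was lower in replicate 3 of the line. The part of these 5 lists in the sterol result was not tested.

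Compared per kilobase of exon, Insig1 and Srebf2 had the highest levels of the 30 genes in EHE26. In EHE26 the mean RPKM (counts scaled to exon length and library size) was 116 for Insig1 and 47.1 for Srebf2, followed by 40.8 for Cyp51, 34.8 for Msmo1 and 31.03 for Sqle. The lowest enzymes there were Lss at 6.57, Tm7sf2 at 3.34 and Fdps at 1.97 RPKM. This scale divides by all annotated exons of a gene, which for Lss hold 10787 bases, the most of the 30 genes, so its rank depends on that length. In EHE17 Insig1 was at 18.04, Srebf2 at 20.4 and Nr1h2 at 29.7 RPKM, and in EHE6 they were at 27.9, 34.3 and 26.5 RPKM. The order of line means was EHE26, EHE6, EHE17 from high to low for 12 of the 19 enzymes, and EHE26, EHE17, EHE6 for the other 7. Among all tested genes these orders held for 19.5% and 14.8%. Over the 19 enzymes EHE17 replicate 1 was the lowest library for 9, and over all tested genes for 9.63%.

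Genes of neighbouring pathways were tested in the same edgeR fit of all 8 libraries by line, called the main fit here. It called 1.08% of all tested genes for EHE26 against EHE17, 1.26% for EHE26 against EHE6 and 0.143% for EHE17 against EHE6. DESeq2 called 8.78%, 8.18% and 2.04% of all tested genes in the same order. Of 18 genes of SREBP processing and sterol-regulated degradation, 15 of isoprenoid use, and 10 tested of 11 oxysterol and further LXR genes, none was called in the main fit or by DESeq2. Without replicate 3 of EHE17 and of EHE6, edgeR called 4 of the 10 oxysterol and LXR genes higher and 1 lower in each EHE26 comparison. That fit called 1 of the 18 SREBP processing genes, higher in EHE26 than in EHE6, and none for isoprenoid use. It called 21.9% of all its tested genes against EHE17 and 22.7% against EHE6. In the main fit, 4, 1 and 2 genes of these lists had an unadjusted p under 0.05 for EHE26 against EHE17 by edgeR. The counts at that p were 3, 0 and 1 for EHE26 against EHE6 and 1, 0 and 1 for EHE17 against EHE6, where 16.6%, 15.9% and 6.90% of all tested genes passed in the 3 comparisons. Among 18 genes of fatty acid synthesis, which SREBP1 is known to drive, the median log2 fold change was 0.49 for EHE26 against EHE17, 0.77 for EHE26 against EHE6 and -0.10 for EHE17 against EHE6. Scd1, the stearoyl-CoA desaturase, was the 1 gene of that list called in the main fit, higher in EHE26 than in EHE17 (5.68 ± 0.74, adjusted p = 0.0160, edgeR). At an unadjusted p under 0.05 the main fit gave 6, 7 and 4 of the 18 genes in these comparisons. Without replicate 3 of EHE17 and of EHE6, edgeR called 6 of the 18 against EHE17 and 8 against EHE6, all higher in EHE26. DESeq2 called Scd1, Scd2, Acss2, Acsl3 and Elovl6 higher in EHE26 than in EHE17, and Scd1, Acss2 and Lpin1 higher in EHE26 than in EHE6. It called Scd1 lower in EHE17 than in EHE6. Among 18 genes of sterol uptake, storage and handling, Lrp1, a lipoprotein receptor, was called higher in EHE26 than in EHE17 (3.25 ± 0.56, adjusted p = 0.0425, edgeR). Npc2, which hands cholesterol on in the lysosome (1.67 ± 0.27, adjusted p = 0.0278, edgeR), and Lipa, the lysosomal acid lipase (1.39 ± 0.24, adjusted p = 0.0389), were called higher in EHE26 than in EHE6. The median of that list was 0.26 for EHE26 against EHE17, 0.29 for EHE26 against EHE6 and 0.23 for EHE17 against EHE6. At an unadjusted p under 0.05 the main fit gave 8, 6 and 5 of these 18 genes. Without replicate 3 of EHE17 and of EHE6, edgeR called 1 higher and 3 lower in EHE26 against EHE17. Against EHE6 that fit called 4 higher and 3 lower. DESeq2 called Lrp1 higher and Gramd1a and Vldlr lower in EHE26 than in EHE17, and Lrp1, Npc2 and Lipa higher in EHE26 than in EHE6. The genes given here for DESeq2 were named after their values were seen.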

How the data were processed

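Per the labels' protocols, RNA came from washed cells (RNeasy Mini), and polyA-selected libraries from the NEBNext Ultra II kit. Per the submitters' processing notes, reads were aligned with HISAT2 to mm10, and the counting tool, annotation and strand setting are not given in the sources used here. The authors deposited raw counts for Ensembl genes, and 8 of 8 sample files equal their column of the series table. Of 55401 identifiers, 55141 were found in GENCODE M21 (GRCm38), and the others held at most 0.0181% of a library's counts. The members and lists were chosen with earlier results of these data known.

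Counts were scaled by TMM and filtered with filterByExpr by line. All 8 libraries were fitted with the line as the only term by the quasi-likelihood test of edgeR 4.0.16 (R 4.3.3), on 5 residual degrees of freedom. P-values were adjusted over 18882 genes by Benjamini-Hochberg. Calls needed an adjusted p below 0.05 and a log2 fold change of 1 or more in size. The common biological coefficient of variation was 0.6. The standard error is the log2 fold change divided by the square root of F. RPKM used the union of annotated exons, ratios between libraries an offset of 0.1 CPM, and principal components a prior count of 2. The script was tested on simulated counts. Shared sequence was counted as 50-base words of a gene's transcripts found in transcripts of other genes, in either orientation.

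Full values were given for called genes, for genes called when the split of the libraries was taken into account, and for a fixed group, and in practice for all 30. In other pathway lists, genes that edgeR called in the main fit were named, up to 4 per list. Alternatives were DESeq2 1.42.0, its size factors in edgeR, other filters, each library left out, the replicate number as a block, the split of the libraries, and the compared lines alone. A block fit of EHE17 and EHE6 alone was added after seeing the data. Deviations from the line means were compared between same-numbered libraries of EHE17 and EHE6 (r across genes 0.132, 0.18 and 0.574). Values of 0.623 and 0.536 were found between different numbers of these lines. Same-numbered libraries of EHE26 and the other lines had r of -0.115 to 0.182. These values do not establish that the numbers pair libraries. Sums over the enzymes carry no test.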

Additional observations from a re-analysis of the deposited data

How the results depend on the processing

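No called gene of the 30 changed direction under any of the alternatives. Counts of calls depended on the processing, and the causes were not tested. For EHE26 against EHE17, where edgeR called 203 genes and 3 of the 30, DESeq2 called 1658 and 14, edgeR without a low-count filter 745 and 9, and the fit of the compared lines alone 764 and 5. For EHE26 against EHE6, where edgeR called 237 and 2, these were 1545 and 7, 547 and 4, and 126 and 0. For EHE17 against EHE6, where edgeR called 27 and 0, DESeq2 called 385 and 1, and edgeR called 142 genes without a filter and 7 with the compared lines alone, with 0 of the 30. With the split of the libraries as a term, 319 genes were called for EHE26 against EHE17, 356 genes and 1 of the 30 for EHE26 against EHE6, and 102 for EHE17 against EHE6. Without replicate 3 of EHE17 and of EHE6 the counts were 4150 and 19 for EHE26 against EHE17, 4302 and 14 for EHE26 against EHE6, and 147 genes for EHE17 against EHE6. With only those 2 libraries and EHE26 they were 612 and 0 for EHE26 against EHE17, 0 of the 30 for EHE26 against EHE6, and 473 genes for EHE17 against EHE6. Leaving out each library in turn gave 2 to 1415 genes and 0 to 9 of the 30 for EHE26 against EHE17, 65 to 1632 and 0 to 7 for EHE26 against EHE6, and 1 to 54 genes for EHE17 against EHE6. The lowest counts came without EHE17 replicate 2 (2), EHE6 replicate 1 (65) and EHE17 replicate 1 (1), and the highest without EHE6 replicate 3. With the replicate number as a block, which left 3 residual degrees of freedom, edgeR called 1860 genes and 14 of the 30 for EHE26 against EHE17, 13 higher and 1 lower. For EHE26 against EHE6 it called 1459 and 10, all 10 higher. EHE26 has no replicate 3, so the block sets it mainly against replicates 1 and 2 of the other lines. There the line EHE26 and the split cannot be told apart. The numbers are not known to pair libraries in any comparison. For EHE17 against EHE6 the block gave 33 genes and 0 of the 30, or 19 genes with only these lines fitted, and so changed no call. Size factors of DESeq2 in edgeR and a filter at a mean of 1 CPM changed no call among the 30. The summed level of the enzymes kept its direction throughout, at a log2 ratio of 1.74 for EHE26 against EHE17, 1.30 for EHE26 against EHE6 and -0.44 for EHE17 against EHE6. With 2 or 3 libraries a line, differences of the size seen here mostly missed the adjusted threshold.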
